A study of Mus musculus with 15 samples.

Results

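Long intergenic noncoding RNAs (lincRNAs) were measured in liver tumors of mice by the probes that the array manufacturer designed for transcribed regions between protein-coding genes. Of 55681 non-control probes on the array, 16251 belonged to this design and 15546 of these lay on chromosomes 1 to 19. A probe was followed further if the scanner software called it well above background on 3 or more of the 5 arrays of at least 1 group, which 7970 probes met and 7576 did not. The 7970 probes fell into 1911 loci, a locus being the probes that lay within 20 kb of each other, and positions are those of the mouse build mm9. The members were thus selected on the measured signal, so a probe kept through 1 group alone had to differ in detection between groups. The 1056 probes that just met the rule, with at most 3 arrays in their best group, had a median log2 level of -4.47, and the 876 probes that just missed it, with 2 arrays, had one of -4.80. Levels are log2 of the processed signal relative to the 75th percentile of the array.

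There were 3 groups of 5 arrays each. Control p53f/f mice gave hepatocellular carcinoma (HCC), and p53LKO mice gave HCC as well as intrahepatic cholangiocarcinoma (ICC). The p53LKO mice lack Trp53, the gene of the tumor suppressor p53, in the liver, and p53f/f mice carry the floxed alleles without the deletion, as the labels have it. The p53 status of the tumors was not checked on these arrays. The promoter that drives the deletion is not given in the sources used here. All mice received intraperitoneal CCl4, a hepatotoxin, in olive oil at 0.5 µl per g body weight every 3 days, as the labels have it (the methods of the study give another interval), for 16 weeks from 6 weeks of age, and the arrays are described as those of male mice. The age at which each tumor on the arrays was taken is not given in the sources used here. The study reports that tumors formed later in p53f/f than in p53LKO mice. A difference of age between these groups therefore cannot be told apart from the genotype. RNA came from whole tumor tissue, so that fewer cells of a type and less RNA per cell cannot be told apart. The 5 p53f/f HCC came from 4 mice, 1 of which gave 2 tumors, and 4 p53LKO mice gave both an HCC and an ICC. All p53f/f HCC lay in the upper row of their slides and all ICC in the lower row, while p53LKO HCC replicates 1 and 2 lay in the lower row and replicates 3 to 5 in the upper row. In the comparison of ICC with p53f/f HCC the row and the group therefore cannot be told apart.

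LincRNAs are transcribed by RNA polymerase II, and most are spliced and polyadenylated like messenger RNAs but are less abundant and more restricted to certain tissues. Several act in the nucleus: Malat1 lies in nuclear speckles, Neat1 is the scaffold of paraspeckles, and Kcnq1ot1 and Airn silence imprinted genes in cis. H19 is a maternally expressed RNA of fetal liver that shares an imprinting control region with Igf2, and lincRNA-p21, next to Cdkn1a, is a target of p53.

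The probes were 60 bases long, with a median of 3 probes for each of 4420 stranded regions, and each finding below rests on what such a sequence can hybridise to. The sequences of the probes on which the main results turn are those of the array files and read 5′ to 3′. The first 4 represent the Malat1 and Neat1 interval and H19. The capitals in the NEAT1 probe mark 30 bases shared with the separate array probe of the Neat1 gene.
chr19:5802130-5802189 (-), 6 kb from the Malat1 probe: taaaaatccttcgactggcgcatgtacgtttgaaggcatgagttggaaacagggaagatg
chr19:5834603-5834662 (-), 8 kb from the Neat1 probe: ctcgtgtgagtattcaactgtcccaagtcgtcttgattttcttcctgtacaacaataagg
NEAT1, chr19:5842594-5842653 (-): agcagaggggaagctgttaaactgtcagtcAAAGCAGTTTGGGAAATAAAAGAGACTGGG
H19, chr7:149761693-149761752 (-): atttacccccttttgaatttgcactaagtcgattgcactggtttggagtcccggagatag

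Some of the brightest probes had sequences that set them apart from the median GC content of 45.0% of the designed probes. The first 3 below were GC-rich, and their capitals mark CG dinucleotides. The capitals of the fourth mark 57 bases shared with a probe of Rn45s, the precursor of ribosomal RNA, and those of the fifth mark all 60 bases, which were identical to a probe of the glutathione transferase-like gene Gm3776.
chr12:73862399-73862458 (+): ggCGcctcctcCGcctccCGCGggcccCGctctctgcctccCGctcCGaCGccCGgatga
chr14:78936616-78936675 (+): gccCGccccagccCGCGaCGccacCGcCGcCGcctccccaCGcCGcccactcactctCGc
chr6:83406215-83406274 (+): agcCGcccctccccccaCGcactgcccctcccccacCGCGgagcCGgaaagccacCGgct
chr17:39983218-39983277 (+): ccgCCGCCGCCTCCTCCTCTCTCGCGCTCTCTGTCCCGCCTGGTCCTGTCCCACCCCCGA
chr9:78116894-78116953 (+): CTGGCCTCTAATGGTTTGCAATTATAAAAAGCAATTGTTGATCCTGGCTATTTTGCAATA

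A further 4 sequences are shown because pairs of probes resembled each other. The pair on chromosome 5 differed by the single substitution T42C, counted from the 5′ end of the first probe and marked by capitals, and so cannot be read as separate transcripts. The pair on chromosome 13 lay on opposite strands, with capitals for the 58 bases that were complementary.
chr5:15168385-15168444 (+): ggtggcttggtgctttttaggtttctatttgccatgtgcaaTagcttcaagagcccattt
chr5:14943980-14944039 (+): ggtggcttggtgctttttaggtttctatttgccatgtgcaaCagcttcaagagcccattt
chr13:73479858-73479917 (-): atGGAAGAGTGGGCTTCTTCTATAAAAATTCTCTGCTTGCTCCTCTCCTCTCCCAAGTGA
chr13:73479856-73479915 (+): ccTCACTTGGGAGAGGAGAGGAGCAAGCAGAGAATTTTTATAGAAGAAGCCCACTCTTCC

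The last 5 sequences belong to loci with large differences between tumors and share no run of 20 bases with another probe.
chr8:67552372-67552431 (-), 176 bases from the Apela probe: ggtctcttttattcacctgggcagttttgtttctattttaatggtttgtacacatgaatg
chr4:35111553-35111612 (-): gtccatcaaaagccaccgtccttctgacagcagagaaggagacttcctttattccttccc
chr17:87489929-87489988 (+): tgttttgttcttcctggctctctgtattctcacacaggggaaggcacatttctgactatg
chr13:28947106-28947165 (-): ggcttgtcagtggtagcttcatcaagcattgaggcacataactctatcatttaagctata
chr13:28537561-28537620 (-): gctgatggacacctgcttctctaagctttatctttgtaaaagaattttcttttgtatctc

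The label of the probes as intergenic was checked against the other probes of the array. Of the 7970 probes, 7339 (92.1%) lay inside no gene as spanned by its own array probes, which can be shorter than the gene, 375 (4.71%) lay inside one on the same strand and 256 (3.21%) only on the opposite strand. The median distance to the nearest gene probe was 20270.5 bases. Among them 764 shared 20 or more bases in a row with another probe, 179 of these with a probe outside the lincRNA design. The tumor types carried their markers: from HCC to ICC of p53LKO mice, 4 of 7 biliary markers tested were higher and 1 was lower, and 5 of 8 hepatocyte markers were lower. In the same comparison 3 of 6 markers of stroma and endothelium and 1 of 6 leukocyte markers were higher.

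Fewer lincRNA probes were detected on the ICC arrays than on the p53f/f HCC arrays. Of the 15546 designed probes, 54.2%, 38.3%, 47.4%, 50% and 58.9% were well above background on the 5 p53f/f HCC arrays. The shares were 25.8%, 15.4%, 45.1%, 45.7% and 45.1% on the p53LKO HCC arrays and 21.2%, 26.5%, 21.7%, 26.2% and 20.2% on the ICC arrays. All ICC arrays were below all p53f/f HCC arrays, and the p53LKO HCC split by row, with replicates 1 and 2 in the range of ICC or below it. The means were 49.8% ± 7.76, 35.4% ± 14.0 and 23.2% ± 2.99 (SD, n = 5 arrays each). These calls are what the detection rule used, so they are given with no test, and for ICC and p53f/f HCC the row cannot be told apart from the group. The other 39430 probes had means of 68.8%, 61.1% and 53.7% in the same order. The limit of detection follows the SD of the negative control spots, which ranged from 1.66 to 3.44 for p53f/f HCC, from 2.18 to 2.5 on the upper-row arrays and was 4.41 and 16.3 on the lower-row arrays of p53LKO HCC, and ranged from 6.92 to 13.9 for ICC. The part of this spread in the difference was not tested.

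**Figure D1:**
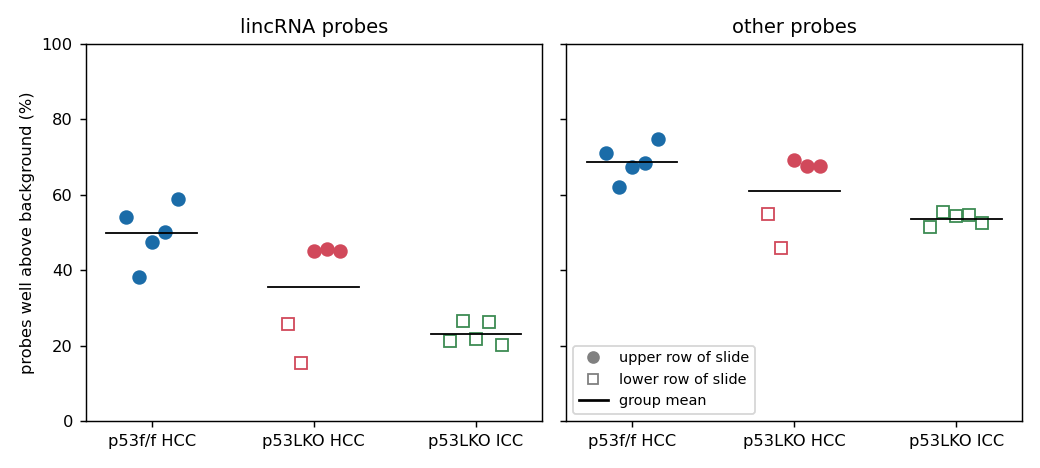
Share of probes well above background (%) on each array, for the 15546 lincRNA probes (left) and the 39430 other probes (right). Points are arrays, filled for the upper and open for the lower row of the slide, and lines are group means. All ICC arrays lie below all p53f/f HCC arrays, and the 2 lower-row p53LKO HCC arrays lie below the 3 upper-row ones.

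By group, 7765 probes (49.9% of those designed) met the rule in p53f/f HCC, 6146 (39.5%) in p53LKO HCC and 3544 (22.8%) in ICC. Of the 7970 probes, 3343 met it in all 3 groups, 2610 in both HCC groups only and 1630 in p53f/f HCC only. Probes that met it in a single p53LKO group were few, with 186 in p53LKO HCC only and 12 in ICC only. On all 15 arrays 2022 probes were well above background, and 5102 of the designed probes were so on none. The share of designed probes that were kept rose with GC content, from 37.4% of probes under 40% GC to 89.9% of those at 70% or above, and Spearman's rho of GC content with the mean level was 0.30 across the 15546 probes, which share the arrays and are not independent. By chromosome, the share ranged from 43.7% on chromosome 13 to 57.8% on chromosome 5.

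In p53LKO HCC against p53f/f HCC, lincRNA probes were called lower far more often than higher. A probe was called when limma's moderated test, with Benjamini-Hochberg adjustment over all probes tested, gave an adjusted p under 0.05 and the fold was over 2. Of 7958 lincRNA probes tested 2257 (28.4%) were called, 77 higher and 2180 lower, against a background of 19.6% of all 36082 probes tested, 3.64% higher and 16.0% lower. The groups did not overlap at 2360 lincRNA probes, against a background of 22.5%. Of the probes tested, 1812 were kept through p53f/f HCC alone, and 1038 of these were called, all lower. Of the 5953 probes that met the detection rule in both groups 1190 (19.99%) were called, 48 higher and 1142 lower, against 14.4% of all such probes. Among the 2022 probes detected on all 15 arrays, the excess was no longer there: 168 (8.31%) were called, 31 higher and 137 lower, against 9.24% of all such probes, and the groups did not overlap at 378, against 17.5%. The direction remained uneven there, since 4.95% of all such probes were higher and 4.28% lower, against 1.53% and 6.78% of the lincRNA probes. The median log2 fold change was -0.55 over the lincRNA probes and -0.12 over all probes tested, and -0.06 and 0.17 among those above background on all 15 arrays. Scaled on the 7 spike-in probes, the median of all probes moved from -0.12 to 0.61 and the calls among lincRNA probes became 824 higher and 862 lower, so that a direction given here is relative to the 75th percentile of the array. The share called among lincRNA probes was then 21.2%, below the 33.3% of all probes tested. It was likewise below that of all probes with normexp background correction (7.43% against 8.02%), and was 19% against 17.1% with 1 probe per locus.

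In ICC against p53LKO HCC, 1481 of 6340 lincRNA probes tested (23.4%) were called, 830 higher and 651 lower, against a background of 26.4%, 12.9% higher and 13.4% lower. The groups did not overlap at 1465 lincRNA probes, against 28.6% of all probes tested. Among probes above background on all 15 arrays, 385 of 2022 (19%) were called, 141 higher and 244 lower, against 22.8% (7.65% higher and 15.2% lower), and 666 did not overlap, against 32.8%. The split of 830 to 651 became 1210 to 304 when the arrays were scaled on probes detected everywhere and 638 to 943 with quantile normalization. In ICC against p53f/f HCC, 1256 of 7784 (16.1%) were called, 158 higher and 1098 lower, against 19.4%, 7.43% higher and 12% lower. The groups did not overlap at 1621 lincRNA probes, against 24.3% of all probes tested. Among those above background on all 15 arrays 254 of 2022 (12.6%) were called, 63 higher and 191 lower, against 17.6% (7.93% higher and 9.64% lower), and 624 did not overlap, against 27.7%. With spike-in scaling this comparison gave 597 higher and 168 lower. The 3 comparisons share arrays, so their counts are not independent.

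Lower calls in p53LKO HCC were counted by signal level. All probes tested were split into 4 bins of like size by their mean level. In the dimmest bin 37.4% of 3484 lincRNA probes were called lower, against 30.2% of the other probes there. The shares were 26.4% and 16.8% in the next bin, 12.2% and 5.92% in the third, and 5.49% of 510 lincRNA probes and 4.0% of the other probes in the brightest. These bins hold probes kept through p53f/f HCC alone, where a call could hardly be other than lower. Among probes detected in both groups, the shares from the dimmest to the brightest bin were 20.2%, 25.2%, 12.2% and 5.49% for the lincRNA probes and 14.6%, 15.6%, 5.90% and 4.0% for the others. In ICC against p53LKO HCC the lower calls were instead most frequent in the brightest bin, with 21.2% of lincRNA probes and 19.9% of other probes. Across chromosomes the share called lower in p53LKO HCC ranged from 22.5% on chromosome 17 to 38.6% on chromosome 10. Chromosome 19, which holds Malat1 and Neat1, had 21 of its 61 probes above background on all 15 arrays called in p53LKO HCC against p53f/f HCC and 32 of 61 in ICC against p53LKO HCC, against 9.24% and 22.8% of all such probes. Of these 61 probes, 18 lie on the minus strand and 8 on the plus strand of the interval of Malat1 and Neat1 described next.

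**Figure D2:**
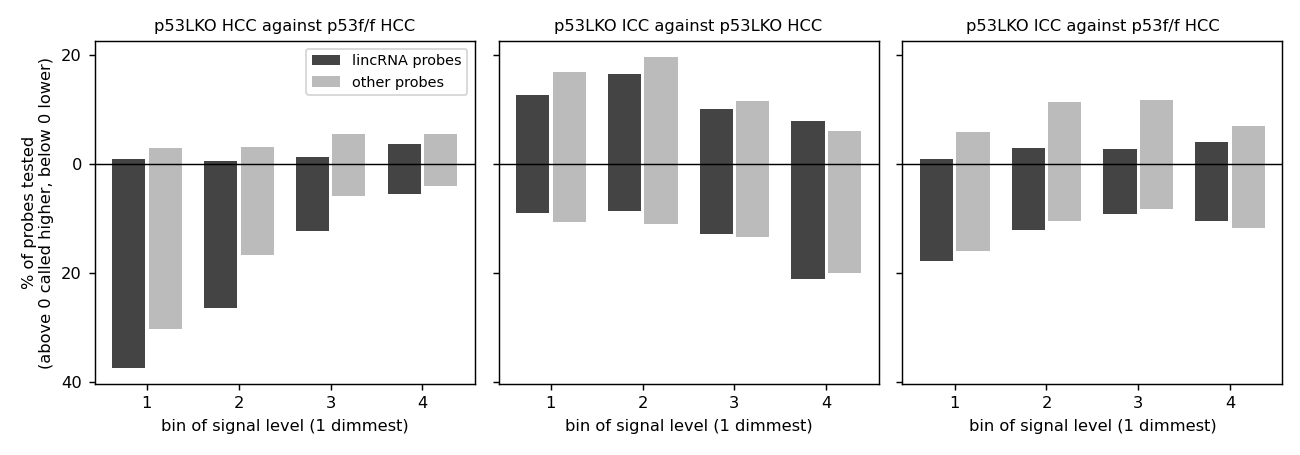
Percentage of probes tested that were called higher (above 0) or lower (below 0) in each comparison, by bin of mean signal level from 1 (dimmest) to 4 (brightest). Dark bars are the lincRNA probes and light bars all other probes. In the left panel the bars for lower calls shorten from 37.4% of lincRNA probes in the dimmest bin to 5.49% in the brightest. These bins hold probes kept through p53f/f HCC alone. Among lincRNA probes detected in both groups the share was 20.2% in the dimmest bin and 25.2% in the next.

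Along the interval chr19:5771425-5848475, the RNAs of the Malat1 and Neat1 strand were lower in p53LKO HCC than in p53f/f HCC and higher again in ICC. Of 19 probes on the minus strand 18 were kept, all 18 well above background on all 15 arrays. In p53LKO HCC against p53f/f HCC all 18 were called lower, with log2 fold changes of -2.99 to -1.79 (median -2.22), and in ICC against p53LKO HCC all 18 were called higher, by 1.5 to 3.58 (median 2.08). In ICC against p53f/f HCC 3 were called higher, with values from -1.0 to 1.78. On the plus strand 15 of 16 probes were kept, and 7 were lower in the first comparison while 3 were higher and 4 lower in the second. Probes of 1 transcript are not independent, and probes within the interval may report the same RNA.

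The brightest lincRNA probe of p53f/f HCC and of ICC lay at chr19:5802130-5802189 on the minus strand, 6417 bases from the Malat1 probe and on its strand. RefSeq (GRCm38) gives Malat1 a length of 6983 bases, so this probe may report Malat1 itself rather than a separate lincRNA. The levels of this probe were 8.94, 9.0, 9.07, 9.41 and 8.93 in p53f/f HCC, 7.10, 6.66, 7.32, 7.01 and 7.83 for p53LKO HCC and 8.76, 9.07, 8.15, 8.81 and 8.62 for ICC. All p53LKO HCC were below all tumors of the other groups. It was lower in p53LKO HCC by a log2 fold change of -1.89 (SE 0.22, limma adjusted p = 0.00017) and higher in ICC than in p53LKO HCC by 1.5 (SE 0.24, adjusted p = 0.00085). The locus at chr19:5834603-5834662, 8 kb from the Neat1 probe, may likewise report Neat1, whose length in RefSeq is 20773 bases. It had means of 2.30 ± 0.68, 0.51 ± 0.43 and 4.09 ± 0.53 (SD, n = 5 each) and was higher in ICC than in both HCC groups, by 3.58 and 1.78.

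The probes named NEAT1, all 5 of which were kept, changed in the same way. The probe at chr19:5842594-5842653 read 5.29, 6.17, 6.30, 6.42 and 6.08 in p53f/f HCC, 2.86, 2.46, 3.16, 2.62 and 4.44 for p53LKO HCC and 5.35, 5.33, 4.49, 5.45 and 5.55 for ICC. All p53LKO HCC were below all tumors of both other groups, and replicate 3 of ICC was the nearest to them. Across the 5 probes the log2 fold change was -2.99 to -2.78 in p53LKO HCC against p53f/f HCC and 1.88 to 2.13 in ICC against p53LKO HCC. The 3 probes named NEAT2, another name of Malat1, gave -2.35 to -2.23 and 2.47 to 2.59. The probe NEAT2 at chr19:5795713-5795772 was identical over 60 bases to the gene probe of Malat1, so both report the same molecules.

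The opposite strand beside Neat1 behaved differently. The plus-strand probe at chr19:5845052-5845111 read 8.43, 4.68, 4.28, 6.44 and 6.35 in p53f/f HCC, 4.86, 4.15, 5.26, 6.21 and 6.60 for p53LKO HCC and 2.33, 2.07, 2.56, 2.55 and 2.81 for ICC. The HCC groups overlapped, and all ICC were below every HCC. The difference was -2.95 (SE 0.41, adjusted p = 0.00039) in ICC against p53LKO HCC, whereas the minus-strand probe of NEAT1 was higher there.

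H19 was high in most p53LKO HCC. The probe at chr7:149761693-149761752 read 2.81, 3.76, 3.24, 1.66 and -0.60 in p53f/f HCC, 8.99, 9.15, 0.16, 7.07 and 6.80 for p53LKO HCC and 5.11, 0.78, 3.87, 0.65 and 3.99 for ICC. Replicate 3 of p53LKO HCC lay between the lowest p53f/f HCC and the next one, and the other 4 were above every p53f/f HCC and every ICC. The log2 fold change in p53LKO HCC against p53f/f HCC was 4.26 (SE 1.55, adjusted p = 0.056), and over the 5 H19 probes it ranged from 4.09 to 4.46, with 1 called, at chr7:149761756. That call was lost in 14 of 25 alternative settings. Among them were the upper row alone (2.68, adjusted p = 0.2) and the fit with the 2 tumors of 1 p53f/f mouse averaged (4.12, adjusted p = 0.079). Also among them were 8 settings with a single array left out. Igf2, a fetal growth factor whose gene neighbours H19, was measured by its gene probe with means of -4.28, 3.5 and -2.12, although it was not well above background on 3 of 5 p53f/f HCC and 2 of 5 ICC arrays, so that the first and last mean rest in part on signals near the limit of detection. Its level in replicate 3 of p53LKO HCC was 4.30, within the range of the other replicates of that group.

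Among the other named lincRNAs, calls were few and many probes were not kept. The 5 probes of TUG1, a widely expressed RNA, were all kept and none was called in any comparison, with log2 fold changes of 0.11 to 0.26 in p53LKO HCC against p53f/f HCC and 0.39 to 0.49 in ICC against p53LKO HCC. The gene probe of Tug1 was higher in the latter by 1.05. The 5 probes that lay between the array probes of Igf2r and Airn were kept, and whether they report Airn itself was not tested. Of these, 1 was lower in p53LKO HCC (-1.58 at chr17:12944475). In ICC against p53LKO HCC 2 were higher, this one by 1.66 and that at chr17:12944580 by 1.64. The first call was lost with the 2 tumors of 1 p53f/f mouse averaged (adjusted p = 0.090). The other 2 calls were lost with the mouse as a block (adjusted p = 0.17 and 0.13). In all, the 3 calls were lost in 15 of 24, 10 of 23 and 10 of 25 alternatives. Of 5 KCNQ1ot1 probes 4 were kept, and these lay on the plus strand while the gene probe of Kcnq1ot1 lies on the minus strand. The KCNQ1ot1 probe at chr7:150482339 was called lower in ICC than in both HCC groups, but no ICC array was well above background there. ICC were at least 1.08-fold lower than p53LKO HCC (adjusted p = 0.033), a call lost in 15 of 22 alternatives, and at least 1.29-fold lower than p53f/f HCC (adjusted p = 0.0025). NRON kept 2 of 5 probes, of which 1, at chr2:33668706, was called lower in ICC than in p53f/f HCC (adjusted p = 0.021) with 2 of 5 ICC arrays well above background, a call lost in 8 of 20 alternatives, and HOTAIR and PINC kept 1 of 5 each. None of the 5 probes named lincP21, which lie on chromosome 17, met the detection rule.

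**Figure D3:**
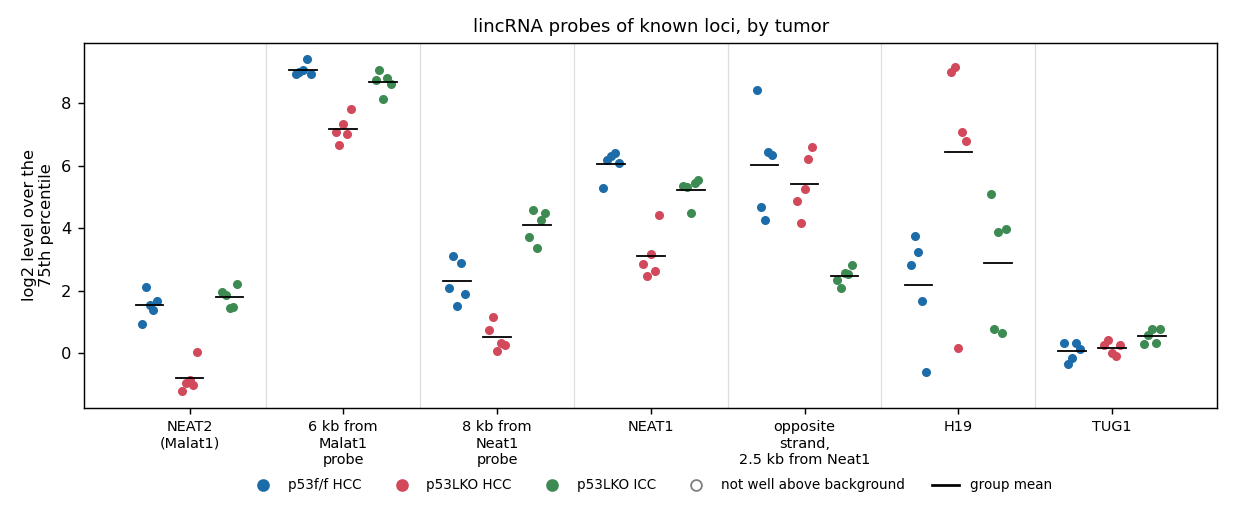
Levels (log2 over the 75th percentile of the array) of 7 lincRNA probes named in the text, as 1 point per tumor and a line for the group mean, with all points well above background. At the 4 minus-strand probes of chromosome 19, from NEAT2 to NEAT1, the p53LKO HCC lie below the other groups, and at H19 replicate 3 of p53LKO HCC lies at 0.16.

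The brightest loci outside this interval differed in how far they moved between tumors. The probes shown above at chr12, chr14 and chr6 had means of 8.40 to 8.54 in p53f/f HCC and 7.59 to 7.65 in ICC, and none changed by more than 2-fold in any comparison. The level of a probe depends on its sequence, so the order of brightness is not an order of abundance. A clear difference was seen at chr1:193897856-193897915 on the minus strand, in an interval between Traf5 and Rcor3 where RefSeq lists a pseudogene of glutathione S-transferase pi. Its levels were 8.43, 9.48, 9.44, 9.19 and 8.12 in p53f/f HCC, 8.85, 8.98, 9.13, 9.27 and 9.52 for p53LKO HCC and 6.76, 5.91, 6.37, 6.53 and 6.88 for ICC. All ICC were below every HCC, with a difference of -2.66 (SE 0.21, adjusted p = 2.15e-05) in ICC against p53LKO HCC. The gene probe of Gstp1, a glutathione transferase, had means of 7.42, 7.97 and 5.12.

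A second such locus lay beside glutathione transferase genes on chromosome 9. The probe at chr9:78116894-78116953, identical to the Gm3776 probe, read 7.15, 8.27, 8.80, 8.78 and 7.78 in p53f/f HCC, 8.37, 7.5, 7.75, 8.81 and 8.36 for p53LKO HCC and 4.77, 1.07, 2.67, 3.58 and 3.64 for ICC. The HCC groups overlapped and all ICC were lower, with a log2 fold change of -5.01 (SE 0.58) against p53LKO HCC (adjusted p = 0.00014). Its neighbour at chr9:78116834-78116893 had the largest fall of ICC among the lincRNA probes measured in both groups, -5.45 against p53LKO HCC and -5.39 against p53f/f HCC. The Gm3776 probe had means of 8.13, 8.19 and 3.07, and the lincRNA probe with the same sequence reports the same molecules.

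The loci with the largest rise in p53LKO HCC against p53f/f HCC were few. Probes called higher, without overlap between the groups and detected in both, numbered 25 in 19 loci (0.31% of the lincRNA probes tested, against 1.83% of all probes tested), and 984 in 576 loci were lower (12.4%, against 7.88%). At chr4:35111553-35111612, 10377 bases from the probe of the interferon gene Ifnk, levels were -1.07, 0.60, -0.28, 0.27 and 0.40 in p53f/f HCC, 3.36, 2.64, 2.23, 2.38 and 3.34 for p53LKO HCC and -1.48, -3.63, 1.13, -1.59 and 0.08 for ICC. All p53LKO HCC were above all tumors of the other groups, by 2.80 (SE 0.35, adjusted p = 0.00024) over p53f/f HCC, and ICC against p53LKO HCC gave -3.89 (SE 0.73). The Ifnk probe, on the opposite strand, was lower in p53LKO HCC by 2.80 on the log2 scale, with means of -1.23 and -4.03. Rises of 2.33 at chr10:95824793-95824852, 2.20 at chr7:69126882-69126941, 1.87 at chr18:25622468-25622527, 1.37 at chr15:77200706-77200765 and 1.32 at chr7:4847060-4847119 followed. The rise on chromosome 10 was 2.21 (adjusted p = 0.056) in the upper row alone, and those at chr7:4847060 and chr15:77200706 lost their call in the upper row alone and with normexp background correction, respectively, as did that at chr7:69126882 with the latter (0.94).

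The largest falls in p53LKO HCC were at a group of loci in which 1 ICC array was low as well. At chr5:15168385-15168444, beside Speer genes of the testis, levels were 4.41, 4.84, 3.39, 4.88 and 4.65 in p53f/f HCC, -2.25, -4.09, -3.39, 0.25 and -0.43 for p53LKO HCC and 2.69, 3.04, 1.36, 4.11 and -2.86 for ICC. The HCC groups did not overlap, and ICC replicate 5 was among the p53LKO HCC while the other 4 ICC were above them. The log2 fold change was -6.42 (SE 0.76, adjusted p = 0.00019), and that of the near-identical probe at chr5:14943980 was -6.41. Of the 6 loci with the largest falls, 5 had ICC replicate 5 as their lowest ICC array and p53LKO HCC replicate 4 as their highest p53LKO HCC array, and 2 of the 5 are the near-identical pair on chromosome 5. The sixth, chr2:67836374-67836433, fell by 4.73 on the log2 scale (SE 0.41, adjusted p = 8.21e-05) and had an ICC mean in between, the group means being 0.82 ± 0.86, -3.91 ± 0.56 and -1.59 ± 1.18 (SD, n = 5 each). The gene probe of B3galt1, a galactosyltransferase whose probe lies 121886 bases away on the same strand, had means of 0.01, -3.31 and -2.13. At 190 probes in 162 loci all 5 p53f/f HCC and no p53LKO HCC array were well above background, with a bound of at least 8.36-fold lower at chr2:67836138-67836197, and 0 probes went in the other direction. Over all probes tested the shares were 1.17% and 0.0055%, against 2.39% and 0% of the lincRNA probes, and p53LKO HCC replicates 1 and 2 detected 25.8% and 15.4% of the designed probes.

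The largest rises in ICC against p53LKO HCC were led by chr17:87489929-87489988, between Cript and Socs5. Levels were 1.56, -1.32, -0.87, 0.15 and 0.12 in p53f/f HCC, -1.54, -1.64, -1.38, -1.27 and -1.02 for p53LKO HCC and 1.97, 3.54, 2.34, 1.87 and 4.73 for ICC. All ICC were above every HCC, by 4.26 over p53LKO HCC (SE 0.49, adjusted p = 0.00014) and by 2.96 over p53f/f HCC (SE 0.64), the latter call being lost with the slide as a block (2.55, adjusted p = 0.069). The probe on the opposite strand of the same place, at chr17:87489928-87489987, gave 0.47 and was not called. The gene probe of Socs5, a suppressor of cytokine signaling, was higher by 1.54.

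At chr10:94870987-94871046, 4079 bases from the probe of Socs2, another suppressor of cytokine signaling, and on its strand, levels were -1.85, -1.93, -1.56, -1.41 and -0.85 in p53f/f HCC, -3.45, -4.14, -3.54, -3.95 and -3.23 for p53LKO HCC and 0.40, 1.25, -0.30, 0.31 and -0.79 for ICC. The 3 groups did not overlap, p53LKO HCC being the lowest and ICC the highest. The rise in ICC over p53LKO HCC was 3.84 (SE 0.35, adjusted p = 4.25e-05), and the Socs2 probe was higher by 2.66. Rises of 3.91 at chr3:95503032-95503091, 3.46 at chr11:96114981-96115040, 10532 bases from the probe of Gm53, and 3.37 at chr18:63526097-63526156 were further members of the leading 6, as was the locus 8 kb from Neat1. Probes detected on all ICC and no p53LKO HCC array numbered 3 (0.047% of the lincRNA probes tested, against 0.21% of all probes tested). In the other direction there were 60 (0.95%, against 0.65%). The largest bound among the 3 was at chr13:28947106-28947165, 95750 bases from the probe of Sox4. There ICC were at least 15.2-fold higher than p53LKO HCC, while the Sox4 probe had means of 1.28 in p53LKO HCC and 1.64 in ICC.

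Among probes detected in both groups, the largest fall in ICC against p53LKO HCC next to those at chromosome 9 lay at chr13:28537561-28537620. It read 7.21, 5.79, 6.29, 6.90 and 6.46 in p53f/f HCC, 5.90, 5.31, 5.66, 6.72 and 7.28 for p53LKO HCC and 2.85, -0.96, 1.24, 2.47 and 1.29 for ICC. The HCC groups overlapped and all ICC were lower, with log2 fold changes of -4.79 (SE 0.66, adjusted p = 0.00036) and -5.15 (SE 0.62) against p53LKO HCC and p53f/f HCC. Log2 fold changes of -4.34 at chr10:87541989-87542048, -3.89 at the chromosome 4 locus above, -3.38 at chr8:72668910-72668969 and -3.23 at chr8:67554789-67554848 followed among those measured in both groups.

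The largest bound was found at chr8:67552372-67552431, 176 bases from the probe of Apela and on its strand, a peptide hormone gene of the early embryo. Levels were -2.22, 4.09, 3.68, 1.69 and -0.96 in p53f/f HCC. In p53LKO HCC they were 4.53, 3.54, 2.91, 3.81 and 4.97, and no ICC array was well above background. The p53LKO HCC lay within the range of the p53f/f HCC or above it, and the latter were spread over more than 6 log2 units. ICC were at least 98.1-fold lower than p53LKO HCC and at least 15.1-fold lower than p53f/f HCC, where the call was lost with the slide as a block (adjusted p = 0.083) and in the methods' t-test (adjusted p = 0.059). The Apela probe had means of -0.20 and 2.75 in both HCC groups and was well above background on no ICC array.

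The remaining leading rises of ICC over p53f/f HCC included 2 loci next to a gene. At chr13:34051776-34051835, 210 bases from the probe of 1110046J04Rik and on its strand, ICC were higher by 3.36 (SE 0.33, adjusted p = 8.05e-05), and the gene probe was higher by 3.64. At chr15:32170404-32170463, 41 bases from the probe of the small nucleolar RNA host gene Snhg18, levels were 0.60, 0.61, 0.40, 0.34 and 0.59 in p53f/f HCC, 1.37, 2.42, 2.45, 2.64 and -0.18 for p53LKO HCC and 3.06, 3.78, 3.25, 3.35 and 3.70 for ICC. All ICC were above every HCC, by 2.92 over p53f/f HCC (SE 0.18, adjusted p = 5.08e-06), and replicate 5 of p53LKO HCC was below all p53f/f HCC.

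**Figure D4:**
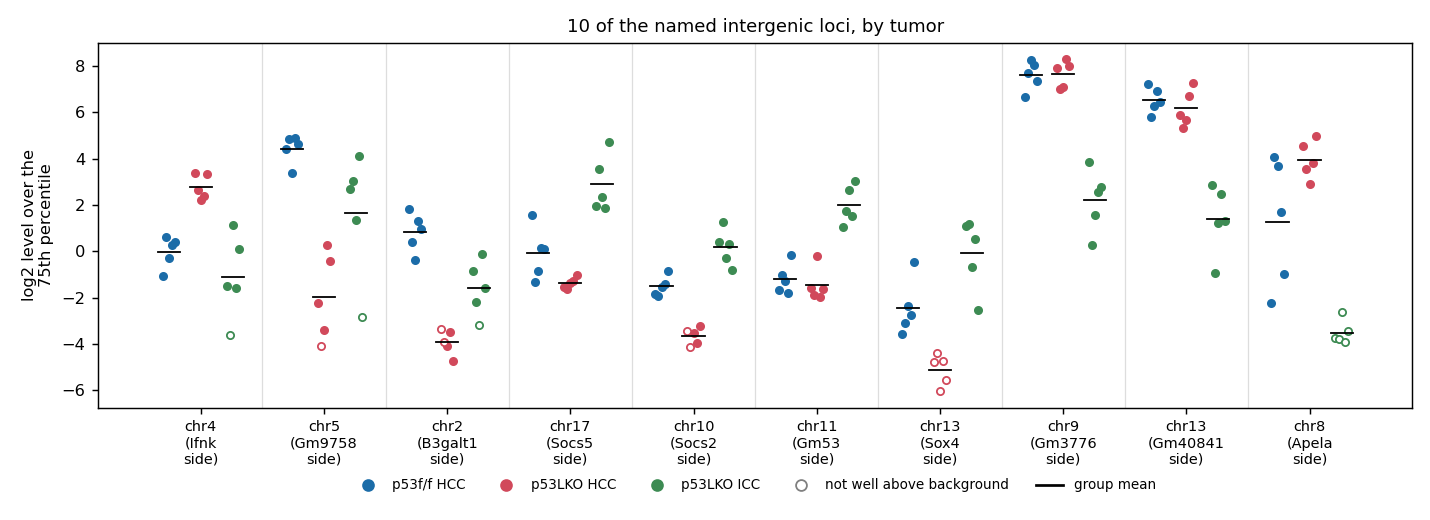
Levels (log2 over the 75th percentile of the array) of 10 named lincRNA loci, labelled by chromosome and the gene on their side, as 1 point per tumor and a line for the group mean. Open points were not well above background. From left to right, the first is highest in p53LKO HCC, the next 2 are lowest in p53LKO HCC, 4 are highest in ICC and the last 3 are lowest in ICC.

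Probes at one place but on opposite strands were compared as pairs. Of 716 such pairs, which lay within 10 bases of each other, 224 had both probes kept and 323 had 1. The brighter probe exceeded the dimmer one by a median of 1.88 on the log2 scale. Across the 223 pairs tested in p53LKO HCC against p53f/f HCC, Pearson's r of both log2 fold changes was 0.06, and it was 0.12 over 152 pairs in ICC against p53LKO HCC, as descriptions of pairs that share arrays. Both probes were called at 23 and 15 of these pairs, in the same direction at 22 and 6. At the pair on chromosome 13 shown above, the minus-strand probe had means of 8.40, 8.10 and 7.48. The plus-strand probe read 1.30, 1.40, 0.05, 1.46 and 1.43 in p53f/f HCC, -3.83, -4.33, -3.06, -1.47 and -3.25 for p53LKO HCC and 0.84, 1.52, 0.05, 1.97 and -4.43 for ICC. The strands differed in size, with -0.31 on the minus strand and -4.31 on the plus strand (adjusted p = 0.00016) in p53LKO HCC against p53f/f HCC. Of 518 stranded regions with 2 or more probes called in that comparison, 510 had them in the same direction, 14 higher and 496 lower, in a comparison where 2180 of all 2257 calls were lower, so that this count and the 22 of 23 pairs follow largely from that split. Of 289 such regions in ICC against p53LKO HCC 239 did, 149 higher and 90 lower.

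LincRNA loci were set beside the nearest protein-coding gene, with 1 probe per locus. Within 5000 bases on the same strand, Pearson's r of both log2 fold changes was 0.41 over 98 loci in p53LKO HCC against p53f/f HCC, 0.29 over 93 in ICC against p53LKO HCC and 0.28 over 98 in ICC against p53f/f HCC. On the opposite strand it was 0.00 over 83, 0.24 over 73 and 0.31 over 81 loci, the last with a Spearman's rho of 0.07. Neighbouring gene pairs on the same strand at this distance gave 0.28, 0.17 and 0.25, and those on opposite strands 0.11, 0.09 and 0.05. These are descriptions across loci, which share arrays and can share transcripts.

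**Figure D5:**
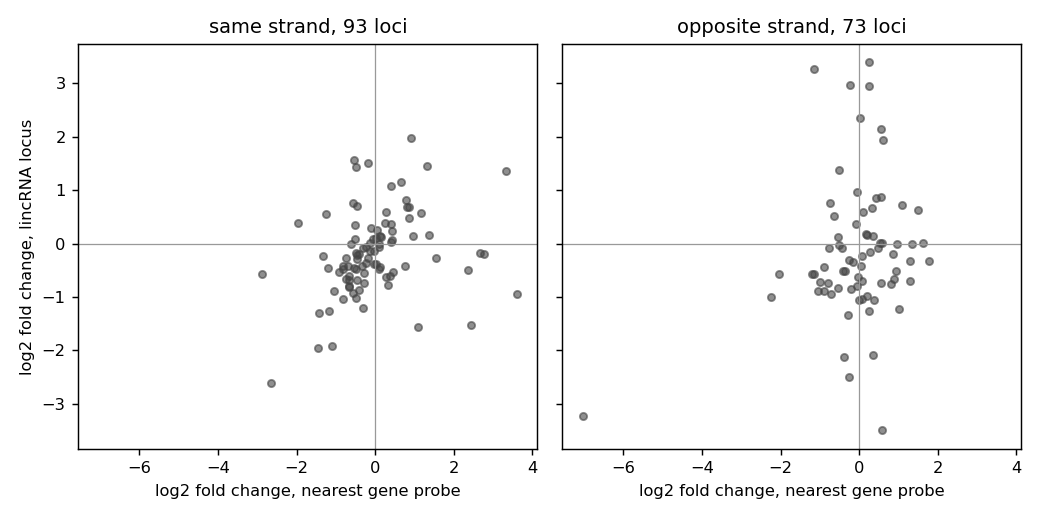
Log2 fold change of lincRNA loci (vertical axis) and of the nearest protein-coding gene within 5000 bases (horizontal axis) in ICC against p53LKO HCC, for 93 loci on the strand of the gene and 73 on the opposite strand. Points spread along both axes, with r of 0.29 on the same strand and 0.24 on the opposite strand.

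Loci within 100 kb of genes from lists were also counted, to be read against the shares of all probes tested, 3.64% higher and 16.0% lower in p53LKO HCC against p53f/f HCC and 12.9% higher and 13.4% lower in ICC against p53LKO HCC. Near 7 p53 target genes 36 probes were kept, and 7 of 36 were lower and none higher in p53LKO HCC against p53f/f HCC (19.4%, against the background of 19.6%). The probe at chr17:29207238-29207297, 20748 bases from the probe of the CDK inhibitor Cdkn1a, was kept through p53f/f HCC alone. It was well above background on 1 of 5 p53LKO HCC and on 0 of 5 ICC arrays. A call there could hardly be other than lower, so its lower call (limma adjusted p = 0.0039) is no independent evidence. The size of the difference was not measured. This probe had means of -2.54 ± 0.50, -4.74 ± 1.00 and -4.69 ± 0.53 (SD, n = 5 each), and the call was lost with normexp background correction. The probe at chr10:117032939-117032998, 93071 bases from the probe of the p53 inhibitor Mdm2, fell by 2.18 and was higher in ICC than in p53LKO HCC by 1.32, a call lost in the lower row alone (adjusted p = 0.054). In ICC against p53LKO HCC 1 of 32 probes tested near p53 targets was higher and 6 were lower (21.9%, against the background of 26.4%). At Btg2, an antiproliferative p53 target, 3 probes of the locus near chr1:135956697 were lower in ICC than in p53LKO HCC. The probe at chr1:135956697-135956756 was well above background on 1 of 5 ICC arrays. Near 3 of 17 biliary genes 14 probes in 5 loci were kept. Of these, 4 of 13 tested were lower in p53LKO HCC against p53f/f HCC. In ICC against p53LKO HCC 4 of 11 tested were higher, among them the Sox4 locus. Near hepatocyte genes 4 of 14 were lower in the first comparison and 0 of 10 tested were called in the second. Near imprinted noncoding clusters 1 of 88 was higher and 14 were lower in the first comparison, and 4 of 65 were higher and 3 lower in the second.

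The separate array probes of named lncRNA genes, of which 27 of 35 had a probe, gave 1 higher and 4 lower of 23 tested in p53LKO HCC against p53f/f HCC, beside 3.64% and 16.0% of all probes. Lower were Malat1 (-2.32), Neat1 (-2.89), Kcnq1ot1 (-2.03) and Mir22hg (-1.93), and Mirg, of the Dlk1 and Meg3 cluster, was higher (2.48). In ICC against p53LKO HCC 7 of 23 were higher and 2 lower, beside 12.9% and 13.4% of all probes, with Malat1 (2.56), Neat1 (2.01) and Kcnq1ot1 (1.68) among the former and Mirg (-3.72) among the latter.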

How the data were processed

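The authors labelled total RNA of whole tumors (RIN above 8) with Cy3, hybridised 1 array per tumor and extracted the scans with Agilent Feature Extraction 10.7.3.1. The deposited scanner files hold, per the file headers, a processed signal intensity after background subtraction and detrending. A table by the authors, of log2 units, matched the rebuilt values centred on the HCC arrays and served as an alternative. Levels were this signal in log2 units relative to each array's 75th percentile, averaged over the spots of a probe. Probes well above background on 3 or more arrays of a group were tested with limma 3.58.1 in R 4.3.3 (adjusted p under 0.05, fold over 2), with the 10 arrays of the 2 groups in each fit, and the script was tested on simulated data. The probes, lists and rules were chosen with earlier results of these data known.

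Named loci are the 6 brightest of each group, the 6 with the largest rise and fall of each comparison among called probes without overlap and detected in both groups, up to 4 detected on all arrays of 1 group and none of the other, loci within 100 kb of listed genes, and probes named for a gene. An "at least" fold sets the mean of the detected group against the higher, per array, of the dim probe and the lowest signal well above background. Gene pairs and further examples were chosen after their values were seen. Mouse numbers pair 4 HCC and ICC by animal. Deviations from group means of these pairs correlated at -0.14 to 0.07. The p-values measure the spread between these tumors, and the number of arrays limits the precision.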

Additional observations from a re-analysis of the deposited data

Results flagged for a closer look

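Among 186 sets of 5 arrays at named loci, 12 (6.45%) had 1 array standing apart from the other 4 by Dixon's test, which chance alone gives in about 1 of 20. In p53f/f HCC the array that stood apart was the lowest at chr13:73479856 (0.054, next 1.30). In p53LKO HCC the array that stood apart was the lowest at chr7:69126882 (-2.69, next -1.23), chr8:67554789 (1.20, next 2.73) and chr1:138606730 (-4.14, next -1.90). It was the highest there at chr16:3116103 (-2.52, next -4.05), chr11:96114981 (-0.19, next -1.59), chr13:34051776 (-2.41, next -3.14), chr9:118314102 (-0.62, next -1.57) and the NEAT2 probe at chr19:5795713 (0.048, next -0.85). In ICC it was the lowest at the NEAT1 probe at chr19:5842594 (4.49, next 5.33) and at chr17:12944475 on the Airn side (-3.21, next -1.79), and the highest at chr1:135956697 (-2.09, next -2.60). The cause was not tested.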

How the results depend on the processing

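In p53LKO HCC against p53f/f HCC the 2257 calls became 591 with normexp background correction, 1459 with quantile normalization, 168 among probes above background on all 15 arrays, 1190 among those detected in both groups and 363 with 1 probe per locus. In ICC against p53LKO HCC the 1481 calls became 678, 385 and 893 under normexp and those 2 filters, 408 with 1 probe per locus, 882 in the lower row alone and 2517 without the fold limit. In ICC against p53f/f HCC the 1256 calls became 289, 254 and 438, 331 with 1 probe per locus, 765 with spike-in scaling, 2586 without the fold limit and 630 once slides were blocked. Leaving out 1 tumor gave 2000 to 2420, 1219 to 1755 and 1059 to 1480 calls. With the mouse as a block, ICC against p53LKO HCC gave 1139 calls. With the 2 tumors of 1 p53f/f mouse averaged, p53LKO HCC against p53f/f HCC gave 2044 calls and ICC against p53f/f HCC gave 1157. These counts were within 1.5 times of the main counts. In the upper row alone p53LKO HCC against p53f/f HCC gave 2277 calls. The row as a block could not be fitted in ICC against p53f/f HCC, and the authors' table was run for HCC only.

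For the probes named by the rule or given by position, 123 called differences gave 2849 values under the alternatives: 2633 kept direction and call, 216 lost the call and 0 changed direction. Of the loci near listed genes, only the 3 probes given by position were included. The H19 call at chr7:149761756 was among those lost (2.68, adjusted p = 0.2 in the upper row alone). Signal over background limits what the dim probes can show. The cause of these changes was not tested.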
